A study of Mus musculus with 18 samples.

Results

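The unfolded protein response and the integrated stress response were followed through 10 genes, Hspa5, Hsp90b1, Dnajb9, Herpud1, Ern1, Xbp1, Atf4, Ddit3, Trib3 and Chac1, chosen by name as markers of endoplasmic reticulum (ER) stress. They were read from a table of 41079 genes, and all 10 were among the 12357 genes that reached a mean of 1 FPKM (fragments per kilobase of gene per 1000000 fragments assigned to genes). The tumors were B16F10 melanomas, grown from a mouse melanoma cell line under the skin of female C57BL/6 mice and injected with a treatment every 2 days from day 6, when they measured about 50 mm3. Tumors were taken 48 h after the last injection, 3 in each of 6 groups, 18 in all.

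The PBS group received buffer alone. Free PS473 was the Pistol ribozyme directed against the mRNA of PD-L1, given with no carrier, and PS473@CPs was the same ribozyme with cationic polymers. NKMOF-101-[Mn] was a manganese metal–organic framework without cargo, M5@NKMOF-101-[Mn] was the framework loaded with a catalytically inactive mutant ribozyme, and PS473@NKMOF-101-[Mn] was the framework loaded with the active ribozyme. The sample titles of the last group carry the framework number 102, whereas the treatment description names only 101. Polymers alone were not analysed here, so polymer and ribozyme cannot be told apart in PS473@CPs, and the labels do not state whether the tumors of a group came from separate mice, so that the p values measure the spread between these samples.

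Unfolded proteins in the ER are sensed by IRE1 (encoded by Ern1), PERK and ATF6. IRE1 splices the mRNA of Xbp1 into the form that encodes an active transcription factor, ATF6 is cut and moves to the nucleus, and PERK phosphorylates the translation factor eIF2alpha, as do the other kinases of the integrated stress response. ATF6 and XBP1 raise ER chaperones and degradation factors, whereas eIF2alpha phosphorylation favours translation of ATF4, which acts with CHOP (encoded by Ddit3) on genes of amino acid supply and cell death. Much of this control lies in splicing, cleavage, phosphorylation and translation, which gene-level FPKM does not measure.

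The promoters of the 10 genes, from 250 bases before to 50 bases after the annotated start, were taken from RefSeq (mouse build GRCm38.p6) and searched on both strands for letters bound by these factors. The ER stress response element (ERSE) was searched as CCAAT and CCACG with 9 bases between, ERSE-II as ATTGG and CCACG with 1 base between, the core of the unfolded protein response element as TGACGTGG, and the C/EBP-ATF element bound by ATF4 and CHOP as TGATGNAA. ERSE and ERSE-II share the letters CCACG. Of 32851 promoters of this length, 0.119% held ERSE, 0.0365% held ERSE-II, 0.676% held TGACGTGG and 3.97% held TGATGNAA. The 5 promoters that held a match are shown so that the chaperone promoters can be read beside those of the stress effectors, and capitals mark the match in the orientation in which it lies in the gene.
Hspa5: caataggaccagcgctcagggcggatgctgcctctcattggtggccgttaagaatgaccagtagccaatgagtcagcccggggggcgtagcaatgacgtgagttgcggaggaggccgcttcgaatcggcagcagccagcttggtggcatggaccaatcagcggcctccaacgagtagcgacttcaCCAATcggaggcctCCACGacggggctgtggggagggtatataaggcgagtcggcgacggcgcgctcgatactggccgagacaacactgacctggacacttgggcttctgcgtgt
Hsp90b1: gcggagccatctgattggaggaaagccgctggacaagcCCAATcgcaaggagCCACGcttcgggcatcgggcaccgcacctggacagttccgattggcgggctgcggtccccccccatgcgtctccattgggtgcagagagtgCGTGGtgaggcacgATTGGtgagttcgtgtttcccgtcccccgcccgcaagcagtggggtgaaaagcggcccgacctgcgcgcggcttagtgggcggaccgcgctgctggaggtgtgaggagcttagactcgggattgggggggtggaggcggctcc
Herpud1: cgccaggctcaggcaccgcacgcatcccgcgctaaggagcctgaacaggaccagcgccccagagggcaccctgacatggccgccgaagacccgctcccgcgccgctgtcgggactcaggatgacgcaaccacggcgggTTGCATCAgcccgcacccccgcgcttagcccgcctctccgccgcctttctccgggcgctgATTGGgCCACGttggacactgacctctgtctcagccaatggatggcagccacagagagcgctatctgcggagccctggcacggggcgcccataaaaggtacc
Trib3: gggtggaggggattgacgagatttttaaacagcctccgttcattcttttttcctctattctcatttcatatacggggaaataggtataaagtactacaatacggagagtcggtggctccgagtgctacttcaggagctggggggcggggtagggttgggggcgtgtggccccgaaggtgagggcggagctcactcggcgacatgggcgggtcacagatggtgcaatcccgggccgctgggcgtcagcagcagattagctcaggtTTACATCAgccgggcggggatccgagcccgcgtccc
Chac1: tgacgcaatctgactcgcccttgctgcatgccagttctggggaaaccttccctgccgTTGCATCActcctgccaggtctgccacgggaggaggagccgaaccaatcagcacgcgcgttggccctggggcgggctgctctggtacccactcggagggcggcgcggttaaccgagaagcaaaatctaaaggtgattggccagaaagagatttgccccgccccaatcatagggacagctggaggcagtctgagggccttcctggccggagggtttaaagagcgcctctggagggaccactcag
The Hspa5 promoter (chr2:34771840-34772139 on the plus strand) held 1 ERSE, starting 65 bases upstream of the gene start. The Hsp90b1 promoter (chr10:86705395-86705694 on the minus strand) held 2, one in the same direction as the gene 212 bases upstream and one reversed 107 bases upstream. Herpud1 (chr8:94386179-94386478 on the plus strand) carried ERSE-II 52 bases upstream and TGATGNAA, reversed, 112 bases upstream. The same element lay reversed 193 bases upstream in Chac1 (chr2:119350992-119351291 on the plus strand) and, in Trib3 (chr2:152344011-152344310 on the minus strand), 14 bases after the start. The windows of Dnajb9, Ern1, Xbp1, Atf4 and Ddit3 held none of these letters.

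By mean level over the 18 tumors on the FPKM scale, which is per length of gene, the order was Hsp90b1 (318), Hspa5 (244), Atf4 (133), Xbp1 (29.5), Herpud1 (24.4), Trib3 (19.7), Ddit3 (12.0), Dnajb9 (11.7), Chac1 (8.60) and Ern1 (6.02). The ranges of neighbors in this order overlapped over tumors except between Atf4 (108 to 169) and its neighbors on either side, Hspa5 (196 to 301) and Xbp1 (25.0 to 36.1). The 2 chaperones were thus among the most abundant mRNAs, above 98.5% or more of the genes tested. Even the least abundant values rested on many fragments, the lowest being 154 for Chac1, and the tumors held 17212000 to 28401000 fragments assigned to genes. Melanocyte lineage markers were high in every tumor (summed level of 7 markers 4835 to 7645 FPKM), and markers of skin epithelium ranged from 0 to 3234 FPKM between tumors, also within groups. The mean level of Cd274, which encodes PD-L1, was 16.5 ± 4.64 FPKM in PBS and 19.9 ± 11.9 in PS473@NKMOF-101-[Mn] (SD, n = 3).

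Across the 6 groups, Trib3, Chac1 and Herpud1 had the smallest p values of the 10 genes, but no gene passed adjustment. limma's moderated F test on log2(FPKM + 1) gave 0 genes (0%) at a Benjamini-Hochberg adjusted p under 0.05 and 246 of 12357 genes (1.99%) at an unadjusted p under 0.05, among them these 3. Trib3 had an unadjusted p of 0.003115 and ranked 6 among all genes tested, Chac1 had 0.0377 and Herpud1 had 0.03939, and the adjusted p from limma was 0.9999 for each. The other 7 lay between 0.0795 for Atf4 and 0.735 for Ern1. Chac1 and Trib3 also varied most between tumors of one group, with a within-group SD of 0.43 and 0.34 on the log2 scale against a median of 0.18 over all genes tested. Without 1 tumor at a time, the unadjusted p of Trib3 ranged from 0.000584 to 0.0203, whereas those of Chac1 and Herpud1 stayed under 0.05 in 10 of 18 cases each.

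Trib3 encodes a pseudokinase that is induced by ATF4 and CHOP. Its levels in the PBS tumors were 19.0, 25.2 and 14.8 FPKM, and in the Free PS473 tumors 32.5, 16.2 and 25.6. The PS473@CPs tumors held 8.66, 10.4 and 12.1 FPKM. These were the 3 lowest values of the 18, below every tumor of the other 5 groups. The framework alone gave 20.2, 24.8 and 36.1 FPKM, the last being the highest of all, M5@NKMOF-101-[Mn] gave 15.4, 16.3 and 19.2, and PS473@NKMOF-101-[Mn] gave 17.8, 16.5 and 23.8. Apart from PS473@CPs, every group overlapped with PBS.

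Chac1 encodes a glutathione-degrading enzyme and is another target of ATF4 and CHOP. It was measured at 7.13, 10.2 and 4.99 FPKM in PBS, 20.0, 9.91 and 9.96 in Free PS473 and 6.53, 4.39 and 4.24 in PS473@CPs. With the framework alone it lay at 6.72, 8.14 and 18.2 FPKM, with M5@NKMOF-101-[Mn] at 6.92, 6.97 and 6.69, and with PS473@NKMOF-101-[Mn] at 7.41, 6.76 and 9.64. Tumor 1 of Free PS473 and tumor 3 of NKMOF-101-[Mn] stood far above all others, none of which exceeded 10.2 FPKM. Group means ran from 5.05 ± 1.28 FPKM (PS473@CPs) to 13.3 ± 5.80 (Free PS473; SD, n = 3), a ratio of 2.63, close to the 2.60 of Trib3 and above the 1.20 to 1.43 of the other 8 genes.

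Herpud1 encodes an ER membrane protein of ER-associated degradation. Its levels were 24.5, 25.3 and 21.2 FPKM in PBS, 31.5, 26.8 and 26.6 in Free PS473 and 22.4, 19.8 and 21.0 in PS473@CPs. NKMOF-101-[Mn] tumors held 23.5, 25.8 and 32.9, M5@NKMOF-101-[Mn] tumors 20.9, 24.1 and 23.6, and PS473@NKMOF-101-[Mn] tumors 25.7, 20.6 and 23.2. The same 2 tumors that were highest in Chac1 were highest in Herpud1, and Free PS473 lay above every other group but the empty framework without overlap.

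Atf4, the transcription factor upstream of these genes, ranged from 108 to 153 FPKM in PBS, 122 to 169 in Free PS473, 109.5 to 129 in PS473@CPs, 142 to 159 in NKMOF-101-[Mn], 118 to 121 in M5@NKMOF-101-[Mn] and 114 to 144 in PS473@NKMOF-101-[Mn]. Ddit3, which encodes the pro-death factor CHOP, was at 14.4, 13.3 and 7.86 FPKM in PBS, 15.1, 10.7 and 14.6 in Free PS473, and 9.33, 8.68 and 10.3 in PS473@CPs. It lay at 11.8, 14.3 and 13.8 in NKMOF-101-[Mn], 13.7, 13.5 and 12.5 in M5@NKMOF-101-[Mn] and 10.8, 10.2 and 10.9 in PS473@NKMOF-101-[Mn]. The last group was the most uniform and lay below both other framework groups without overlap. In RefSeq, Ddit3 overlaps Mars1 and Mbd6, and no strand marking is described for the libraries, so reads of these genes may not be separable.

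**Figure D1:**
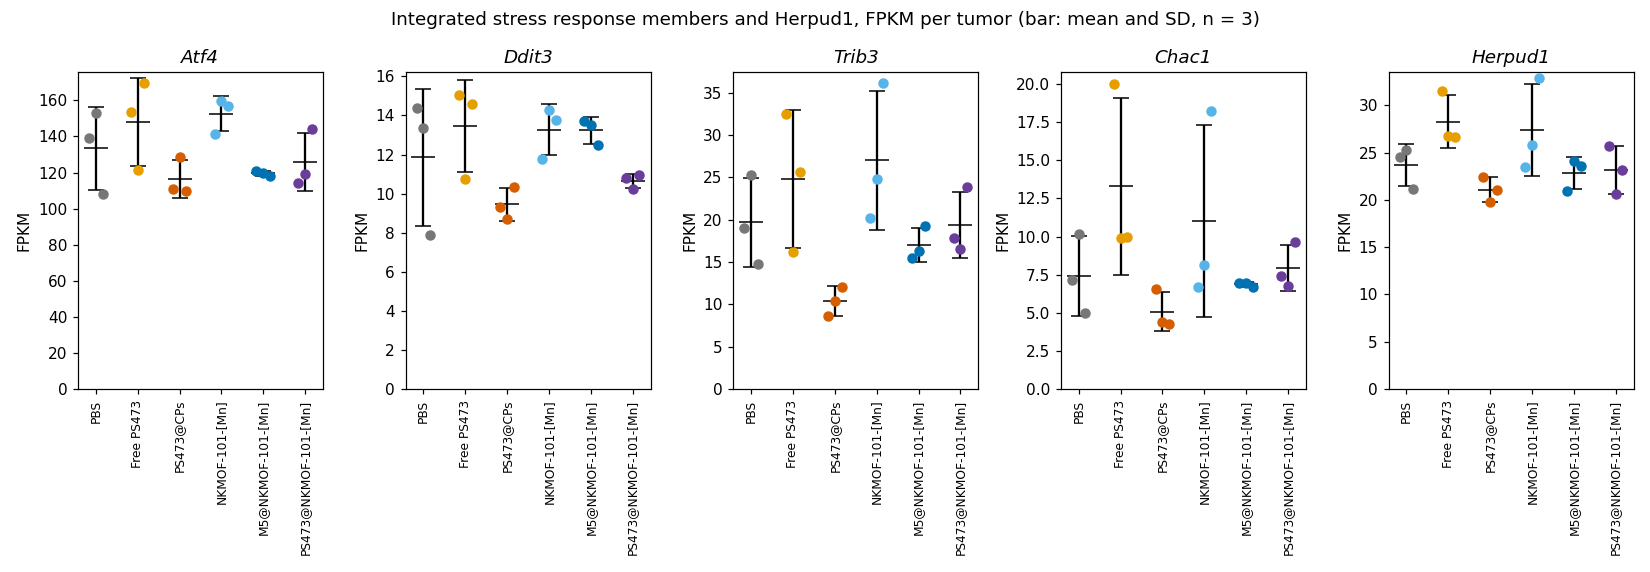
FPKM (vertical axes, from 0) of Atf4, Ddit3, Trib3, Chac1 and Herpud1 in each tumor, by group; points are tumors, and bars give the mean and SD of 3. The PS473@CPs tumors are the 3 lowest for Trib3 (8.66 to 12.1 FPKM), and single tumors of Free PS473 and NKMOF-101-[Mn] reach 20.0 and 18.2 FPKM for Chac1.

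Hspa5 encodes BiP, the main ER chaperone, which also holds the stress sensors inactive. It was at 206, 224 and 271 FPKM in PBS, 238, 233 and 297 in Free PS473, and 249, 301 and 221 in PS473@CPs. NKMOF-101-[Mn] tumors held 296, 271 and 245, M5@NKMOF-101-[Mn] tumors 241, 237 and 218, and PS473@NKMOF-101-[Mn] tumors 216, 225 and 196. Hspa5 overlaps Rabepk in RefSeq, and Rabepk was the gene whose pattern was most like that of Hspa5 (Pearson r = 0.945 over 18 tumors), so their reads may not be separable.

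Hsp90b1 encodes GRP94, the HSP90 of the ER. Its levels were 278, 300.2 and 327 FPKM in PBS, 307, 277 and 341 in Free PS473 and 298, 353 and 314 in PS473@CPs. They were 378, 369.8 and 315 in NKMOF-101-[Mn], 342, 352 and 301 in M5@NKMOF-101-[Mn], and 303, 303 and 264 in PS473@NKMOF-101-[Mn]. Both chaperones were thus highest on average with the empty framework and lowest with the loaded PS473 framework, and each of these groups overlapped with PBS.

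Xbp1 too was highest on average with the empty framework and lowest with the loaded PS473 framework, the groups between differing in order. Its total mRNA, spliced and unspliced together, was at 25.8, 32.4 and 30.3 FPKM in PBS, 28.2, 30.1 and 36.1 in Free PS473 and 26.6, 35.3 and 25.6 in PS473@CPs. It was at 36.1, 32.6 and 29.6 in NKMOF-101-[Mn], 28.3, 28.1 and 26.9 in M5@NKMOF-101-[Mn] and 25.0, 29.1 and 25.4 in PS473@NKMOF-101-[Mn]. Ern1, which encodes the sensor that splices Xbp1, ranged from 3.60 to 7.82 FPKM, and both extremes fell in framework groups. Dnajb9, which encodes the co-chaperone ERdj4, ranged from 9.12 to 14.3 FPKM, and its group means ran from 10.6 ± 1.24 in PS473@CPs to 13.1 ± 1.82 in PBS (SD, n = 3). The group ranges of Ern1 overlapped throughout, and Dnajb9 of PS473@CPs overlapped with PBS.

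**Figure D2:**
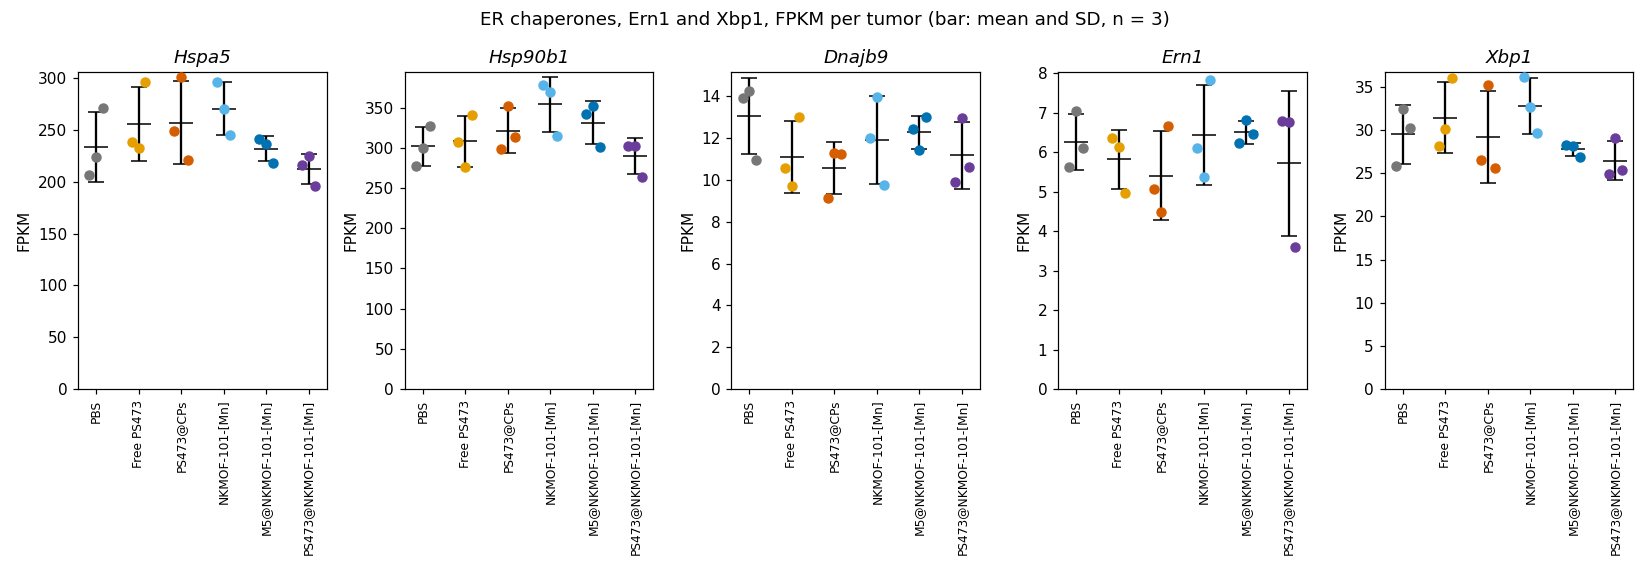
FPKM (vertical axes, from 0) of Hspa5, Hsp90b1, Dnajb9, Ern1 and Xbp1 in each tumor, by group; points are tumors, and bars give the mean and SD of 3. For Hspa5, Hsp90b1 and Xbp1 the NKMOF-101-[Mn] tumors lie above the PS473@NKMOF-101-[Mn] tumors, whose Hspa5 values are 196 to 225 FPKM.

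Each treatment was then compared with PBS, by contrasts of the same limma fit, with the same 3 PBS tumors in all 5 comparisons. In each of them 0 of 12357 genes (0%) passed an adjusted p under 0.05. At an unadjusted p under 0.05, 1.81% of genes passed for Free PS473, 2.09% for PS473@CPs, 1.46% for NKMOF-101-[Mn], 1.51% for M5@NKMOF-101-[Mn] and 2.1% for PS473@NKMOF-101-[Mn]. The share of genes whose 3 tumors did not overlap with the 3 PBS tumors was 4.91%, 5.11%, 6.02%, 8.11% and 4.66% in the same order. Of the 10 stress genes, 1 passed the unadjusted threshold in PS473@CPs and 1 in Free PS473, 1 did not overlap with PBS in each of these groups, and 0 did either in the framework groups. With 10 genes, 1 is the smallest count above 0.

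In PS473@CPs, Trib3 lay 0.84 ± 0.26 lower than in PBS on the log2(FPKM + 1) scale (SE; 95% interval of the difference for this gene alone, -1.39 to -0.29), with an unadjusted p of 0.005251 and an adjusted p of 0.9998 from limma. Leaving out any 1 tumor kept the difference between -1.02 and -0.65. For Chac1 the difference was -0.45 ± 0.33, for Ddit3 -0.26 ± 0.17 and for Atf4 -0.18 ± 0.14 (SE), and 8 of the 10 genes were lower on average, with a median of -0.19 against -0.01 over all genes tested. The exceptions were Hspa5 (0.14 ± 0.14) and Hsp90b1 (0.09 ± 0.11, SE). Erythroid markers were also lower in most tumors of this group, with overlap: the summed level of 3 markers (Hba-a1, Hbb-bs and Alas2, none at 0) was 40.6 to 1421 FPKM in PS473@CPs and 905 to 12095 in PBS, and its part in the result was not tested. In these bulk tumors, fewer cells of a type and less RNA per cell cannot be told apart.

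With Free PS473, Chac1 lay 0.73 ± 0.33 higher than in PBS (log2 scale, SE), with an unadjusted p of 0.04032 and an adjusted p of 0.9998 from limma. The difference was 0.42 without tumor 1 of Free PS473 and 0.51 without tumor 3 of PBS, with limma unadjusted p of 0.2195 and 0.171, and 0.0742 without tumor 1 of PBS. With the skin epithelium score as a covariate it was 0.61, and the unadjusted p was 0.09703. Herpud1 was 0.25 ± 0.12 higher without overlap (limma unadjusted p of 0.06336), and 8 of the 10 genes were higher on average, with a median of 0.14 against 0.03 over all genes. Of all 12357 genes, 7349 were higher. For Hsp90b1 the sign depended on the scaling, since quantile normalization turned its 0.03 to a negative value.

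The empty framework gave higher averages than PBS for 9 of 10 genes, Dnajb9 excepted, with a median of 0.20 against 0.03 over all genes, and 0 passed the unadjusted threshold. Of all 12357 genes, 7261 were higher. The summed level of 6 macrophage markers, none at 0, moved with this group without overlap, from 87.7, 140 and 126 FPKM in PBS to 293, 162 and 213, and its part in these differences was not tested. Its largest differences were those of Chac1 (0.44 ± 0.33) and Trib3 (0.43 ± 0.26, SE), and that of Ern1 (0.03) turned negative with upper-quartile scaling. M5@NKMOF-101-[Mn] had 3 genes higher and 7 lower (median -0.05, all genes -0.01), and Hspa5, at -0.002, changed sign under both other scalings. PS473@NKMOF-101-[Mn] had 1 higher and 9 lower (median -0.09, all genes -0.01), and Hsp90b1, at -0.06, was positive after quantile normalization. For PS473@NKMOF-101-[Mn] the interval of the difference in Hspa5 was -0.42 to 0.16, that in Trib3 -0.55 to 0.54 and that in Chac1 -0.58 to 0.81.

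**Figure D3:**
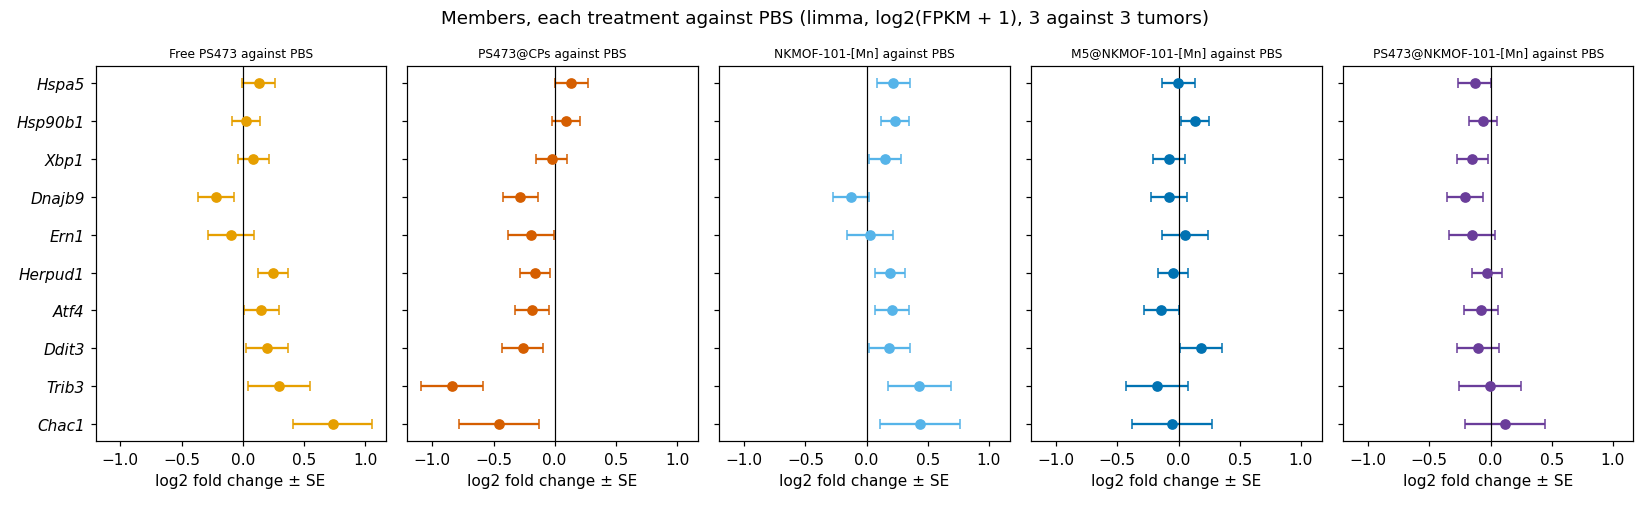
Log2 fold change against PBS (horizontal axis, log2(FPKM + 1) scale) of the 10 genes in each treatment; points are limma estimates from 3 against 3 tumors and bars are ± 1 SE. Trib3 in PS473@CPs (-0.84) and Chac1 in Free PS473 (0.73) lie farthest from 0.

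PS473@NKMOF-101-[Mn] was compared with each of its controls to separate ribozyme activity, framework and carrier. The same 3 tumors enter all of these comparisons. Again 0 genes (0%) passed adjustment in any of them. Against M5@NKMOF-101-[Mn], which differs by the mutation that removes catalysis, 0.591% of genes passed an unadjusted p under 0.05 and 4.48% did not overlap. None of the 10 genes passed, 4 were higher and 6 lower (median -0.10, all genes -0.01), and Ddit3 alone did not overlap, at -0.29 ± 0.17 (SE; interval -0.65 to 0.08; limma unadjusted p of 0.1125).

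Against the empty framework, all 10 genes were lower on average in PS473@NKMOF-101-[Mn], also under both other scalings, with a median of -0.29 against -0.04 over all genes tested. Of all 12357 genes, 7623 were lower too, and the 10 genes are correlated with each other, so their directions are not independent. Of the 12357 genes 2.3% passed an unadjusted p under 0.05 and 7.91% did not overlap. Hspa5 was lower by -0.35 ± 0.14, Hsp90b1 by -0.29 ± 0.11 and Xbp1 by -0.30 ± 0.13 (log2 scale, SE), each without overlap and with unadjusted p values of 0.02256, 0.02294 and 0.03712 and an adjusted p of 0.9995 in limma. Ddit3 did not overlap either (-0.29 ± 0.17). With quantile normalization the unadjusted p of Hsp90b1 was 0.1106. All 3 genes missed the unadjusted threshold without tumor 1 of NKMOF-101-[Mn] (differences of -0.28, -0.24 and -0.23) or tumor 3 of PS473@NKMOF-101-[Mn] (-0.29, -0.22 and -0.27), Hsp90b1 and Xbp1 also without tumor 2 of NKMOF-101-[Mn] (-0.26 and -0.30), and Xbp1 without tumor 1 of PS473@NKMOF-101-[Mn] (-0.26).

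Markers of other cell types moved with this difference. The summed level of 6 macrophage markers was 162 to 293 FPKM in NKMOF-101-[Mn] and 79.6 to 163 in PS473@NKMOF-101-[Mn], that of 4 fibroblast markers 111 to 411 and 46.7 to 182, and that of 3 endothelial markers 10.7 to 34.8 and 6.97 to 10.2. The first 2 lists overlapped between the groups and the endothelial list did not. No marker of these 3 lists was at 0 in any of these tumors. The neutrophil list (3 markers, up to 1 at 0) was at 1.70 to 11.7 and 0.356 to 1.60 FPKM and the plasma cell list at 16.6 to 24.6 and 12.3 to 14.8, both without overlap. Over all 18 tumors, 110 relations between the 10 genes and 11 marker lists were computed (mean log2 level of a list), and 10 passed a Benjamini-Hochberg adjusted permutation p under 0.05, all of them positive and with Hspa5, Hsp90b1 or Xbp1. Among them were Xbp1 with endothelium (Pearson r = 0.82, permutation p = 9e-05, adjusted p = 0.0099; Spearman rho = 0.72, permutation p = 0.00093, adjusted p = 0.03327; r = 0.71 without the 2 farthest tumors), and Hsp90b1 with macrophage (r = 0.72, permutation p = 0.0007, adjusted p = 0.0154; rho = 0.71, permutation p = 0.00121, adjusted p = 0.03327; r = 0.57 without the 2 farthest). The others joined Xbp1 with the macrophage, plasma cell, fibroblast, adipocyte and neutrophil lists and Hspa5 with the plasma cell, adipocyte and endothelium lists. By Spearman's rho 5 of these 10 did not pass: Xbp1 with macrophage (adjusted permutation p = 0.07056), fibroblast (0.1226) and adipocyte (0.2464), and Hspa5 with adipocyte (0.1487) and endothelium (0.1485). Hsp90b1 with the T cell list passed by rho alone (adjusted permutation p = 0.03828). Of the 6 plasma cell markers only Sdc1 reached a mean of 1 FPKM, and up to 3 were at 0 in a tumor. Of the 4 adipocyte markers only Fabp4 reached that mean, and none of the 4 T cell markers did (summed level 0.217 to 4.31 FPKM). These lists thus rest on 1 expressed marker or none, and relations with them may not reflect those cells. The plasma cell marker Derl3 is also among the listed genes of ER-associated degradation, so that marker list is not separate from the pathways studied. The part of the listed cell types in the difference was not tested.

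Against PS473@CPs, Trib3 was 0.84 ± 0.26 higher in PS473@NKMOF-101-[Mn] (limma unadjusted p of 0.005414, adjusted p of 0.9958), and Trib3 and Chac1 (0.57 ± 0.33, SE) did not overlap, in a comparison where 2.29% of genes passed an unadjusted p under 0.05 and 4.12% did not overlap. In all, 7 of the 10 genes were higher, with a median of 0.09 against 0.00 over all genes, and Hspa5 (-0.27 ± 0.14), Hsp90b1 (-0.15 ± 0.11) and Xbp1 (-0.12 ± 0.13, SE) were the lower ones. Against Free PS473, Herpud1 was lower by -0.28 ± 0.12 (limma unadjusted p of 0.03877, adjusted p of 0.9597), where 4.98% of all genes passed the unadjusted threshold. Hspa5, Herpud1 and Chac1 did not overlap, as was the case for 6.82% of all genes. Endothelial markers (10.6 to 31.6 FPKM in Free PS473 and 6.97 to 10.2 in PS473@NKMOF-101-[Mn]) and plasma cell markers (16.0 to 22.9 and 12.3 to 14.8) did not overlap here either, and their part was not tested. Nor did the plasma cell list overlap with its levels in PS473@CPs (17.0 to 65.6) or M5@NKMOF-101-[Mn] (14.8 to 15.7), which were higher. Herpud1 missed the unadjusted threshold under either other scaling, and without tumor 1 of Free PS473 (-0.20), tumor 2 (-0.20) or tumor 3 (-0.28) of PS473@NKMOF-101-[Mn]. The 3 framework groups together, 9 tumors, were also set against the 9 tumors without framework: 0 of the 10 genes passed and none separated, whereas 4.56% of all genes passed an unadjusted p under 0.05, 0% passed adjustment and 0% did not overlap. The largest difference there was that of Trib3 (0.26 ± 0.15, SE; limma unadjusted p of 0.09483).

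Over the 18 tumors the genes varied in 2 blocks. Of the 45 pairs, 13 passed a Benjamini-Hochberg adjusted permutation p under 0.05 for Pearson's r and 13 for Spearman's rho, all positive. They were the 3 pairs among Hspa5, Hsp90b1 and Xbp1 (r = 0.66 to 0.85) and the 10 pairs among Herpud1, Atf4, Ddit3, Trib3 and Chac1 (r = 0.63 to 0.91), a division drawn after the values were seen. The highest was Herpud1 with Chac1 (r = 0.91, rho = 0.84, permutation p = 1e-05 for each, the smallest 100000 resamples can give, adjusted p = 0.00045; r = 0.79 without the 2 tumors farthest from the median). Hspa5 with Xbp1 had r = 0.85 (permutation p = 5e-05, adjusted p = 0.000675) and rho = 0.80 (permutation p = 0.00015, adjusted p = 0.001687), and r = 0.77 without the 2 farthest tumors. The 15 pairs between the blocks had r from -0.24 to 0.49, and 0 passed, as did 0 pairs with Ern1 or Dnajb9.

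Within groups, taking each tumor's deviation from its group mean, 11 pairs passed. Of these 9 were positive, and 2 were negative, Hspa5 with Herpud1 (r = -0.59, permutation p = 0.00925) and Xbp1 with Herpud1 (r = -0.60, permutation p = 0.00882, adjusted p = 0.03784 for both), which had pooled r of -0.07 and 0.03. Removing the group means leaves fewer independent deviations than tumors. The permutation p values of the deviations showed no allowance for this and may be too small. Whether all 11 pairs pass, the 2 negative ones included, is thus not settled. Among the deviations, the 3 chaperone-block pairs kept r = 0.71 to 0.85, and the pairs of the other block had r = 0.26 to 0.84. Without the 2 farthest tumors 9 pairs passed. Hsp90b1 with Xbp1 (r = 0.53, adjusted permutation p = 0.1301), Herpud1 with Atf4 and with Ddit3, and Ddit3 with Chac1 did not. With quantile normalization 12 pairs passed, and Hsp90b1 with Xbp1 again did not (r = 0.38, adjusted permutation p = 0.3293).

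**Figure D4:**
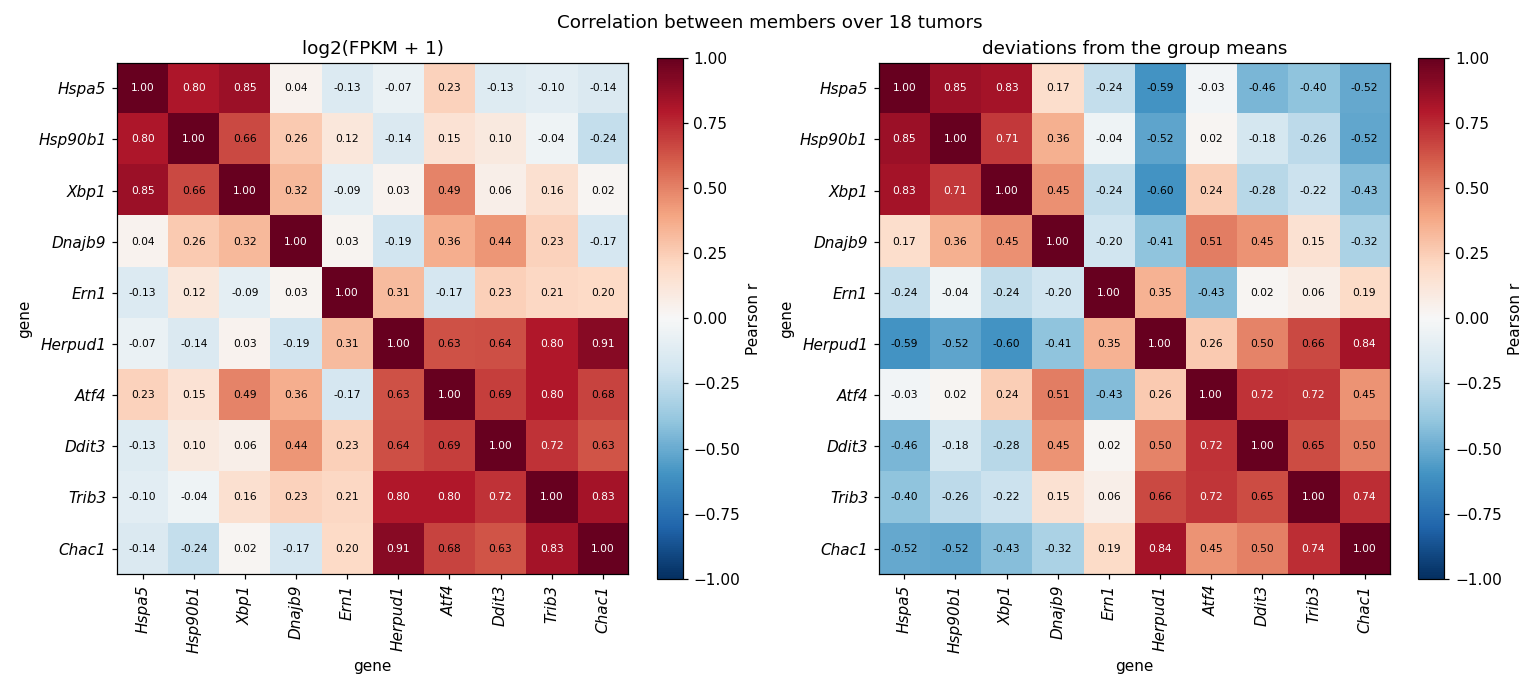
Pearson r between the 10 genes over 18 tumors, of log2(FPKM + 1) on the left and of deviations from the group means on the right; color and number give r from -1 to 1. Hspa5, Hsp90b1 and Xbp1 form one block and Herpud1, Atf4, Ddit3, Trib3 and Chac1 another, with r of 0.66 to 0.85 and 0.63 to 0.91 on the left.

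Among all 12357 genes, those most like each stress gene over the 18 tumors were looked up by Pearson r, as a description. Besides Rabepk, the nearest to Hspa5 was Creld2 (r = 0.90), which encodes an ER protein that is itself induced by ER stress, and Hsp90b1 was nearest to Kdelr2 (0.88), a receptor that returns ER proteins from the Golgi, and Gm53399 (0.82). Trib3 was nearest to Aldh1l2 (0.89), an enzyme of mitochondrial folate metabolism, and Chac1 (0.83). Herpud1 and Chac1 were each other's nearest gene, followed by Nek6 (0.80) for Herpud1 and Trib3 for Chac1. Atf4 was nearest to Trib3 (0.80) and Armcx3 (0.80), and Ddit3 to Fam219a (0.76) and Ddit4 (0.75), a stress-induced inhibitor of mTORC1. Dnajb9 was nearest to Dram2 and Tmem30a (0.82 and 0.81), Xbp1 to Gm13066 and Afap1l1 (0.87 each), and Ern1 to Trip11 and Pcnx1 (0.95 each), which have long transcripts of 14500 and 16043 bases.

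Lists of other genes of these pathways were read in the same fit. Of 28 ATF4 and CHOP targets 22 were expressed, and 6 passed an unadjusted p under 0.05 in the F test, as did 6 of 13 aminoacyl-tRNA synthetases, which ATF4 also induces, against 1.99% of all genes. Of the other lists, 1 of 20 ER chaperones and folding enzymes passed, and 0 of 13 sensors and eIF2alpha kinases, 17 ER-associated degradation genes, 22 ER import and XBP1 targets, 13 cytosolic heat shock genes and 8 genes of the mitochondrial unfolded protein response did. The smallest unadjusted p among these were 0.1078 for Ube2g2, a ubiquitin-conjugating enzyme of ER-associated degradation, 0.1266 for Srprb, 0.1646 for Hspa1b, 0.2012 for Ppp1r15b and 0.2556 for Lonp1. In limma 0 genes of any of the lists passed adjustment. Genes of a list may vary together over the same tumors, so the counts are not counts of independent genes. The lists were also chosen with earlier results of these data known, and no difference between lists was tested.

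The ATF4 and CHOP targets and the synthetases were mostly lower in PS473@CPs than in PBS. Of the 22 targets 21 were lower (median -0.28), and 11 of 13 synthetases were lower (median -0.21). Of all 12357 genes, 6509 were lower, with a median of -0.01. Gpt2, an alanine aminotransferase, was at 4.07, 4.44 and 3.78 FPKM in PBS and at 2.21, 2.49 and 2.81 in PS473@CPs, a difference of -0.54 ± 0.15 (SE; limma unadjusted p of 0.002464, adjusted p of 0.9998). Slc6a9, a glycine transporter, was at 3.15, 4.55 and 3.24 and at 2.33, 2.60 and 2.56 FPKM (-0.40 ± 0.14, SE). Neither gene overlapped between these groups, and for Cebpg, which encodes a partner of ATF4 (-0.25 ± 0.09, SE), the nearest tumors of the 2 groups were both at 10.2 FPKM. These 3 genes were named for the smallest F test p of the list, which favors genes whose groups separate. Of all genes tested, 5.11% did not overlap in this comparison and 2.09% passed an unadjusted p under 0.05 in limma.

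In M5@NKMOF-101-[Mn] 19 of 22 targets and 12 of 13 synthetases were also lower than in PBS (medians -0.21 and -0.14, all genes -0.01), although Trib3 of these tumors overlapped with PBS. Of all 12357 genes, 6464 were lower there. PS473@NKMOF-101-[Mn] stood higher on average than M5@NKMOF-101-[Mn] in 13 of 13 synthetases (median 0.20). Of these, 5 had an unadjusted limma p under 0.05, against 0.591% of all genes. It was higher than PS473@CPs in 12 of 13 (median 0.30), 8 of them at that threshold, against 2.29% of all genes. Of all 12357 genes, 5764 and 6221 were higher, with medians of -0.01 and 0.00. By mean log2 level of the 13 synthetases, the PS473@NKMOF-101-[Mn] tumors were at 5.67, 5.37 and 5.69. Tumor 2 lay within the ranges of M5@NKMOF-101-[Mn] (5.35 to 5.38) and PS473@CPs (5.18 to 5.38), so the groups overlapped. Cars1, the cysteinyl-tRNA synthetase, was at 13.2, 15.4 and 14.3 FPKM in M5@NKMOF-101-[Mn] and at 21.7, 15.5 and 19.5 in PS473@NKMOF-101-[Mn], 0.37 ± 0.12 apart (SE; limma unadjusted p of 0.009076, adjusted p of 1). Cars1 was named for the smallest F test p of the synthetases. The comparisons share tumors and are not independent of each other, and genes of a list may vary together. TGATGNAA was found in the promoters of 7 of 25 ATF4 and CHOP targets and 5 of 8 synthetases that had a RefSeq promoter.

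ER chaperones had a different order. With the empty framework 19 of 20 were higher than in PBS (median 0.15, all genes 0.03), beside the macrophage markers that also lay higher there. With Free PS473 19 of 20 were higher (median 0.10, all genes 0.03). Of all 12357 genes, 7261 and 7349 were higher in these comparisons. In PS473@NKMOF-101-[Mn] 19 of 20 were lower than with the empty framework (median -0.15, all genes -0.04), as were 7623 of 12357 genes. Of the 20, 4 had an unadjusted limma p under 0.05, against 2.3% of all genes. Creld2 was at 62.8, 53.9 and 46.5 FPKM in NKMOF-101-[Mn] and at 40.2, 38.4 and 32.1 in PS473@NKMOF-101-[Mn] without overlap (-0.54 ± 0.17, SE; limma unadjusted p of 0.007333, adjusted p of 0.9995). Manf, a secreted stress-induced factor, was at 170, 176 and 135 and at 126, 124 and 128 FPKM (-0.34 ± 0.14, SE). Creld2 and Manf were named for a small F test p in their list, and 7.91% of all genes did not overlap in this comparison. ERSE was found in the promoters of 5 of 17 of these chaperones, Calr, Canx, Creld2, Dnajc3 and Pdia6.

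**Figure D5:**
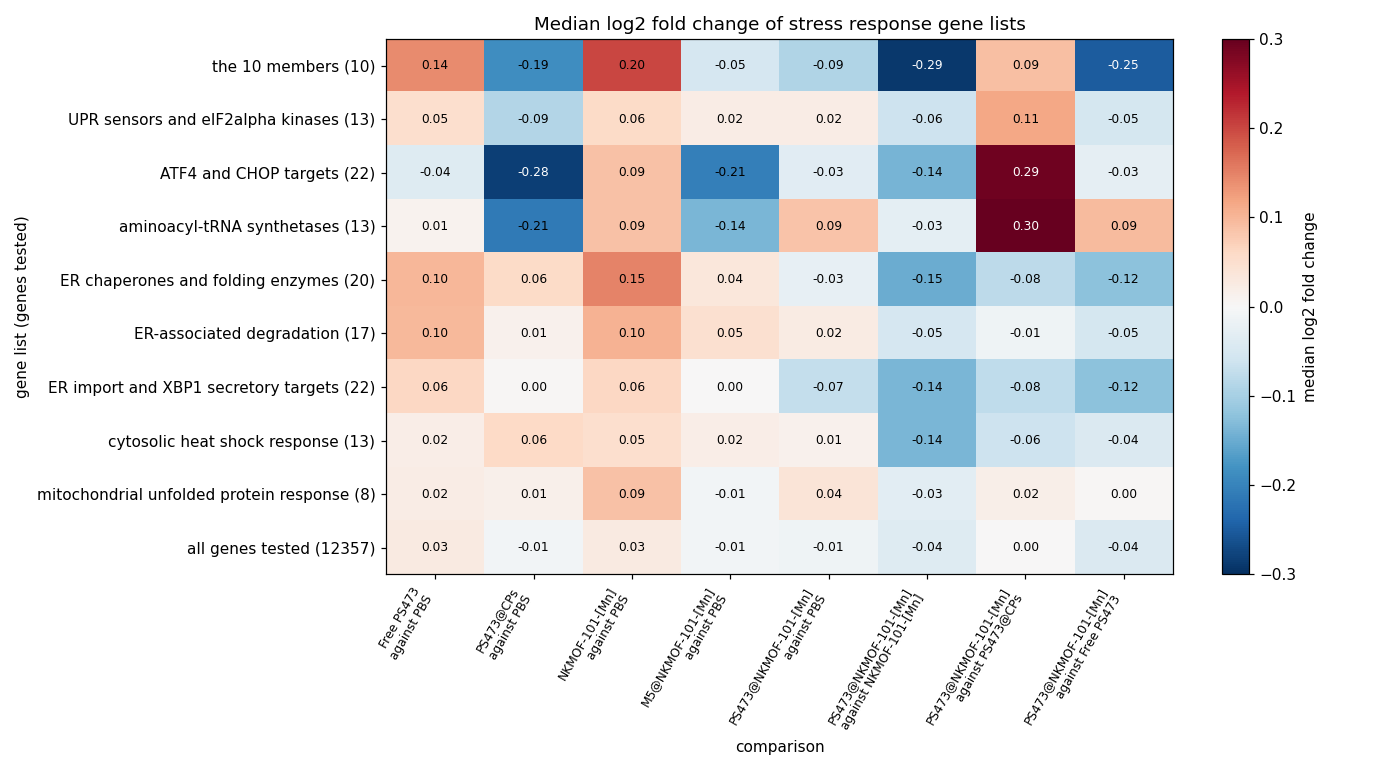
Median log2 fold change (color and number, log2(FPKM + 1) scale) of the 10 genes, of 8 pathway lists and of all genes tested (rows, number of genes tested in brackets) in 8 comparisons (columns). ATF4 and CHOP targets (-0.28) and synthetases (-0.21) are low in PS473@CPs against PBS, where ER chaperones are at 0.06.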

How the data were processed

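RNA of 18 tumors was enriched for poly(A), copied from random hexamers and sequenced by the authors, who deposited FPKM values and 1 gene length for each of 41079 genes. The submitters' processing notes name genome build GRCm39, and the aligner, counter and annotation are not given in the sources used here. Tumors were assigned to groups from their titles. Fragments per tumor were recovered from the steps between low FPKM values. Only 49.2% to 53.2% of low values were whole fragments (tolerance 0.01), so no count model was used, and 0 of 153 pairs of tumors held identical values. The 10 genes held at least 154 fragments in every tumor.

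log2(FPKM + 1) was fitted for the 12357 genes whose mean reached 1 FPKM with limma 3.58.1 in R 4.3.3 (1 mean per group, prior variance with a trend, no replicate block), with Benjamini-Hochberg adjustment over all genes in each comparison. No tool for such a test is named in the study. Permutation p values of correlations were two-sided, from 100000 resamples (Python 3.11.15, numpy 2.4.6). The fit was tested on simulated data with known changes, for PS473@NKMOF-101-[Mn] against PBS. Normal noise was drawn for each gene on its own, with the within-group SD of that gene. Shifts shared by many genes of a tumor, such as those in cell type markers, were absent, so recovery in the real tumors may be lower. With a known log2 change of 0.5, the fit recovered 21.5% of the altered genes, with 1 false call. With changes of 1, 1.5 and 2 it recovered 78%, 86.5% and 92.5%, with 5, 6 and 6 false calls. Most changes of 0.5 were thus missed even in these simulated data, and a count of 0 genes does not exclude differences of that size or larger. The genes and lists were chosen with earlier results of these data known, and the 2 correlation blocks after their values were seen. Named genes were the 10 genes, the 3 genes with the smallest F test p of each list, and the 2 genes most correlated with each of the 10. Promoters came from RefSeq GRCm38.p6 and matched all 10 genes by symbol, a different build from that of the FPKM table, to which they were joined by symbol alone. Alternatives were another pseudocount (0.1), filter (0.1 FPKM or none), scaling and prior, a replicate block, a skin epithelium covariate, the groups compared alone, and leaving out each tumor.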

Additional observations from a re-analysis of the deposited data

How the results depend on the processing

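Under these alternatives 0 of the 10 genes passed adjustment in limma, and the differences that passed the unadjusted threshold or did not overlap kept their sign. Small differences that changed sign with the scaling are given beside the results. With no filter on low values, 4 genes passed adjustment among the 6 groups, 2 in PS473@NKMOF-101-[Mn] against PBS, 3 in M5@NKMOF-101-[Mn] against PBS, 2 in Free PS473 against PBS, 3 against M5@NKMOF-101-[Mn], 1 against PS473@CPs, 2 against Free PS473 and 2 between framework and no framework. They were Gm12790, Gm23749, Gm30953, Serpina1a and Gm23598, all with a mean under 0.06 FPKM and named after their values were seen. Compared alone, PS473@CPs and PBS gave 1 gene (Gm4786). Leaving out 1 tumor gave 0 to 1 genes for PS473@CPs against PBS and 0 to 1 for framework against none, the 1 being ND4L and Snora57, both without tumor 3 of PS473@CPs, and 0 in the other comparisons. The cause was not tested. The count of the 10 genes at an unadjusted p under 0.05 among the groups, 3 as reported, ranged from 1 to 5 without 1 tumor: it was 5 without tumor 3 of PBS and 1 without tumor 1 of Free PS473, 2 or 3 of PS473@CPs, or 1 or 3 of M5@NKMOF-101-[Mn].

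The labels do not state whether the replicate numbers pair the tumors. Same-numbered tumors had correlations of deviations from -0.73 to 0.72, and 4 of 18 were closest to a tumor of their own number. These values do not settle whether tumors with the same number shared a batch. With a replicate block the count of the 10 genes at an unadjusted p under 0.05 was 1 (Trib3), and 0 genes passed adjustment in any comparison. The correlated pairs numbered 9 to 12 under the alternatives, against 13. Among these counts, the 11 within groups rests on p values that may be too small. Depth was recovered from rounded values and is approximate, and the 10 genes held at least 154 fragments in every tumor.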

Other observations

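The cytosolic heat shock genes, which respond to unfolded proteins outside the ER, varied strongly between tumors. Hspa1b, an inducible HSP70, was at 6.00, 15.0 and 13.0 FPKM in PBS and at 3.89, 3.45 and 3.21 in PS473@NKMOF-101-[Mn], without overlap (-1.37 ± 0.48 on the log2 scale, SE; limma unadjusted p of 0.0119, adjusted p of 0.9934). Between these groups 4.66% of all genes did not overlap, and Hspa1b was named for the smallest F test p of its list. In PS473@CPs it ranged from 3.14 to 20.3 FPKM, the lowest and the highest of the 18 tumors. Summed skin epithelium markers (8 listed) were at 0, 3094 and 1192 FPKM in these PBS tumors, at 0.381, 323 and 12.4 in PS473@NKMOF-101-[Mn] and at 3234 in the PS473@CPs tumor with the highest Hspa1b. Summed neutrophil markers (3 listed) were at 1.09, 461 and 149 in PBS, at most 1.60 in PS473@NKMOF-101-[Mn] and at 298 in that PS473@CPs tumor. The part of these cells was not tested. Its copy Hspa1a, whose reads may be shared with Hspa1b, was at 1.70, 5.67 and 6.82 FPKM in PBS and at 1.73, 1.85 and 0.839 in PS473@NKMOF-101-[Mn], with overlap. Of the 13 heat shock genes, 7 were higher and 6 lower in this comparison (median 0.01, all genes -0.01). The kinase gene Eif2ak2, which encodes the double-stranded RNA sensor PKR, was at 12.1 FPKM in tumor 2 of PS473@NKMOF-101-[Mn] and at 7.84 or less in the other 17 tumors.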
